A study of Mus musculus with 30 samples.

Results

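The genes described here are the 8 of the core circadian clock loop: Arntl (also called Bmal1), Clock, Npas2, Per1, Per2, Per3, Cry1 and Cry2. They were taken as every probe set that the array's annotation assigns to 1 of these symbols, which gave 10 of the 12422 probe sets that are not array controls: 1 for each gene, except Cry1 with 3. The series measured gene expression in the left ventricle of C57BL/6 mice aged 2 months on 30 MG_U74Av2 arrays, each hybridised with RNA pooled from 2 animals. It set mice of the disease genotype that the labels call HCM against wild-type mice, a casein-based diet against a soy-based diet, and females against males. The 8 groups were HCM females on casein (4 arrays), wild-type females on casein (4), HCM females on soy (3), wild-type females on soy (4), HCM males on casein (4), wild-type males on casein (4), HCM males on soy (3) and wild-type males on soy (4). The mutation behind HCM is not named in the sources used here, and every array holds whole-tissue RNA. The time of day at which hearts were taken is not given in the sources used here, so time of day and group cannot be told apart in any comparison below.

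In the mammalian clock, ARNTL pairs with CLOCK or its relative NPAS2, and the pair binds E-boxes and drives the Per and Cry genes. PER and CRY proteins then repress that pair, which closes the loop. A side loop sets Arntl itself: the nuclear receptors NR1D1 and NR1D2 repress it and RORA activates it. DBP and TEF, which act at D-boxes, are outputs of the loop. Heart muscle cells carry this clock, and in mouse tissues Arntl transcripts are known to peak at a part of the day when Per1 and Dbp transcripts are low.

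On GRCm38.p6, the RefSeq mouse assembly, Arntl lies on chromosome 7 (113178471 to 113314126, plus strand), Clock on chromosome 5 (76209868 to 76305603, minus strand) and Npas2 on chromosome 1 (39193702 to 39363240, plus strand). Per1 lies on chromosome 11 (69095108 to 69109965, plus strand), Per2 on chromosome 1 (91415977 to 91459351) and Per3 on chromosome 4 (150997018 to 151044707, minus strand). Cry1 lies on chromosome 10 (85131700 to 85185054, minus strand) and Cry2 on chromosome 2 (92403646 to 92434085, minus strand). RefSeq promoter windows of 300 bases (250 before and 50 after a transcript start) were matched for 7 of the 8 genes, 11 windows in all; Per2 was not searched. They were searched on both strands for the E-box CACGTG, the D-box TTATGTAA and the half-site TAGGTCA, to which NR1D and ROR receptors are known to bind; none of these motifs overlapped another. Over all 32851 RefSeq windows of that length, 7.15% held the E-box, 0.94% the D-box and 2.61% the half-site. Among these 7 genes, the E-box was found in a window of Per1 and of Cry1, the D-box in that of Per3, at 2 places, and the half-site in a window of Arntl. These 4 are shown because they hold the loop's own motifs, with the motif in capitals, and are read 5′ to 3′ on the gene's own strand. A match of letters is no measure of binding. The first 3 are the 250 bases before a transcript start, at chr11:69098699-69098948 for Per1, chr10:85185055-85185304 for Cry1 and chr4:151044666-151044915 for Per3. The Arntl site is chr7:113207533-113207555, just inside a transcript.
Per1: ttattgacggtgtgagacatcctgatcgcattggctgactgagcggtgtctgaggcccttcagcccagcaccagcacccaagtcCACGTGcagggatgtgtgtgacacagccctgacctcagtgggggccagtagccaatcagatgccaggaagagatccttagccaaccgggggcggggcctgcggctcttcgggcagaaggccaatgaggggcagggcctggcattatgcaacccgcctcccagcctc
Cry1: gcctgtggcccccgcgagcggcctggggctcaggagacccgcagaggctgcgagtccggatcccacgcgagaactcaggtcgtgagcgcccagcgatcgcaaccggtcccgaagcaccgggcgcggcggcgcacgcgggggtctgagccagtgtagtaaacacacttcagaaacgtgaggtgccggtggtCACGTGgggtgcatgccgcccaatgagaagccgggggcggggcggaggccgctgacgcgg
Per3: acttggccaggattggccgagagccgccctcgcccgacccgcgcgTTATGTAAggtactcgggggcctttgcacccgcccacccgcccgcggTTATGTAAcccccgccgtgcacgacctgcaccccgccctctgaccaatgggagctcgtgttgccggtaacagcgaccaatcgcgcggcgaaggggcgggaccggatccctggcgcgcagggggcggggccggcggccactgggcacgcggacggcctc
Arntl: gcagaaagTAGGTCAgggacgga

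The values are log2 expression per probe set, so a difference of 1 is a factor of 2. The array medians lay between 6.11 and 6.22. Limma tests, two-sided, were fitted over all probe sets, and a call is a Benjamini-Hochberg adjusted p under 0.05 over all 12422. The labels give pooled RNA samples as replicates, so a p-value reflects only how far such pools vary. In whole tissue fewer cells of a type cannot be told apart from less RNA per cell. The arrays stood apart in their control probe sets: the bacterial control Dap read 7.18 to 8.07 on the 8 casein HCM arrays and 4.03 to 4.70 on the other 22. Casein wild-type arrays also divided by the difference of the hybridisation controls BioD and BioC, which was 2.17 to 2.44 on replicates 1 and 2 of both sexes (set A) and 0.50 to 0.63 on replicates 3 and 4 (set B). On soy that difference was 2.349 to 2.453 on the HCM arrays and 1.564 to 1.865 on the wild-type arrays, without overlap. The array sets below are casein HCM, casein wild type A and B, soy HCM and soy wild type. No set held both diets or both genotypes, so neither HCM nor diet can be told apart from array set. The 8 measured ventricular muscle markers (of 10 listed) averaged 9.69 to 13.39; detection calls were not available. Their summed level on the linear scale was higher in each HCM group than in the wild-type group of its sex and diet, for example 59185 to 60886 in HCM males and 51573 to 54090 in wild-type males on casein. Their part in the clock genes' values was not tested.

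Arntl (probe set 102382_at), the gene of the factor without which the loop stops, had the widest spread of the 8 genes. On casein it read 5.42, 4.78, 5.64 and 5.68 in HCM females and 5.26, 4.97, 5.22 and 5.10 in wild-type females, and 5.12, 4.88, 4.85 and 5.25 in HCM males and 5.89, 5.67, 6.05 and 6.30 in wild-type males. On soy it read 6.34, 5.95 and 6.33 in HCM females and 5.51, 5.63, 5.34 and 5.36 in wild-type females, and 5.27, 6.19 and 6.14 in HCM males and 5.14, 5.39, 5.46 and 5.16 in wild-type males. The 8 arrays above 5.68 were all 3 of the HCM females on soy, 2 of the 3 of the HCM males on soy and 3 of the 4 of the wild-type males on casein; next came replicate 4 of the HCM females on casein (5.68) and replicate 2 of those wild-type males (5.67). The group means, from the top, were 6.21 ± 0.23 in HCM females on soy, 5.97 ± 0.27 in wild-type males on casein, 5.86 ± 0.52 in HCM males on soy, 5.46 ± 0.14 in wild-type females on soy, 5.38 ± 0.42 in HCM females on casein, 5.29 ± 0.16 in wild-type males on soy, 5.14 ± 0.13 in wild-type females on casein and 5.03 ± 0.19 in HCM males on casein (SD, n = 3 or 4). The ranges of each 2 neighbours in that order overlapped. Within groups, the residual SD of Arntl (0.28) was larger than that of 95.7% of all probe sets.

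**Figure D1:**
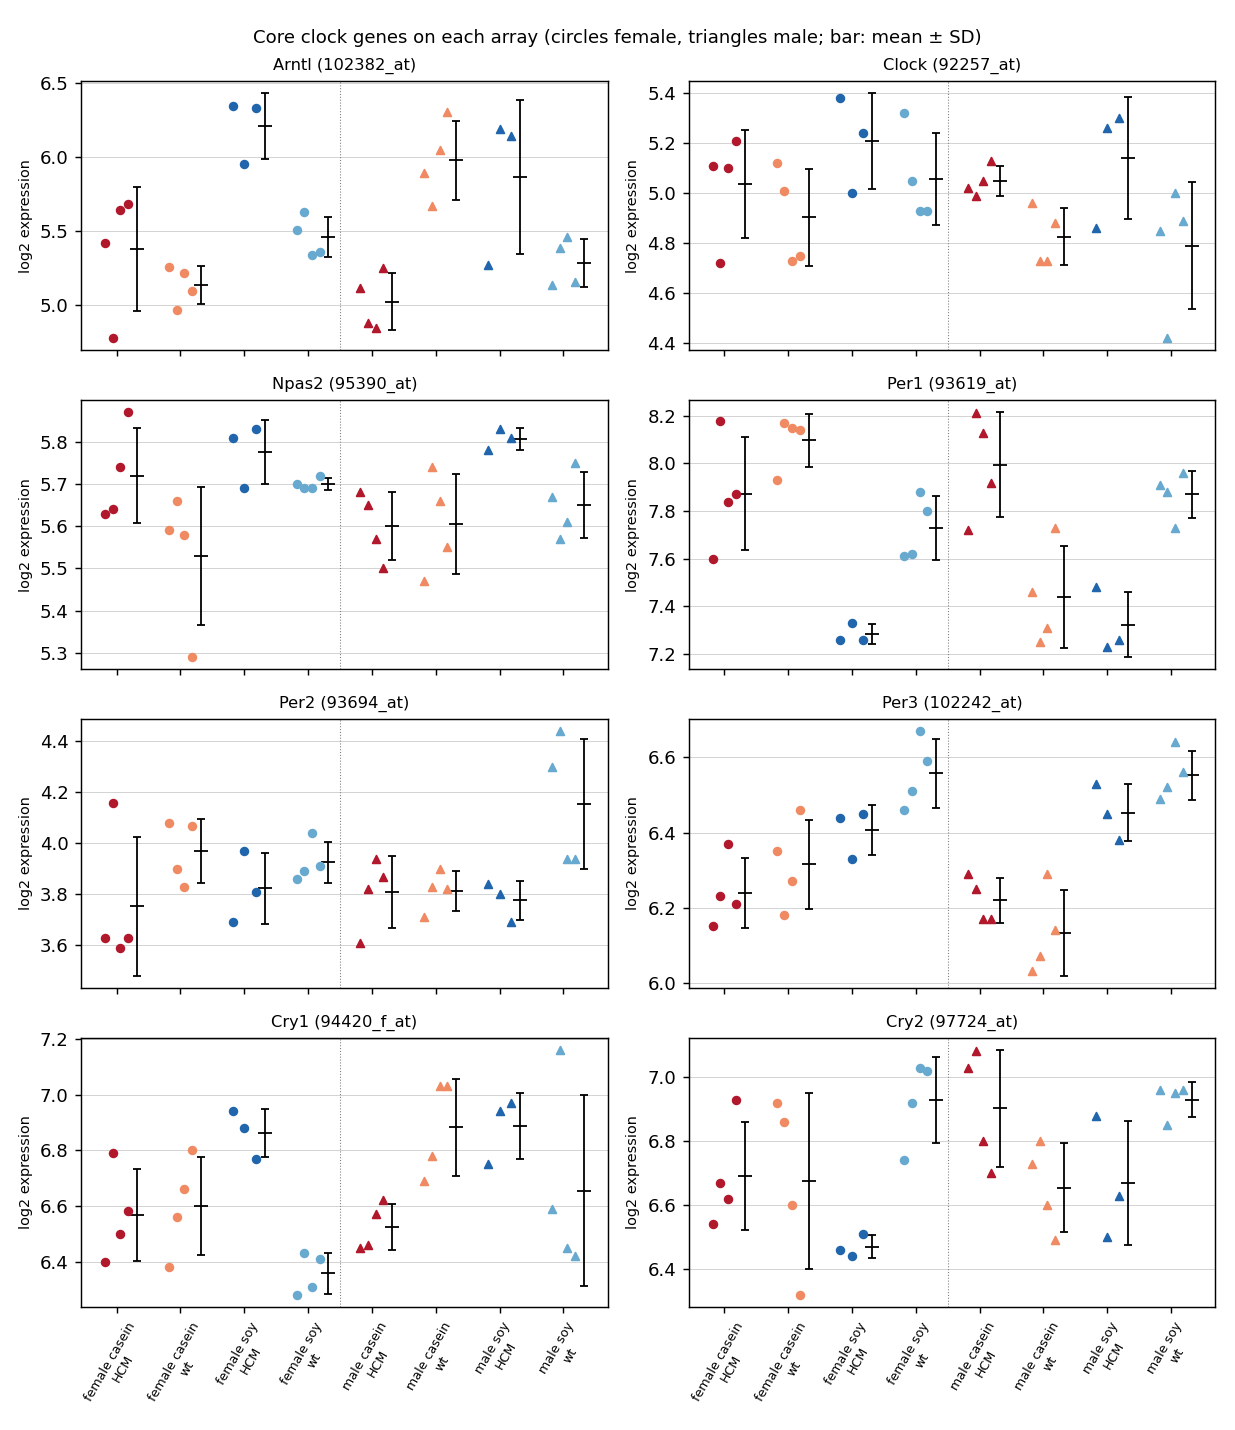
Log2 expression (vertical axes) of 1 probe set for each of the 8 core clock genes on all 30 arrays, by group (horizontal axis, HCM left of wild type within each sex and diet); circles are female and triangles male arrays, and bars are group means ± SD (n = 3 or 4). The group means of Arntl were highest, and those of Per1 lowest, in HCM females on soy, HCM males on soy and wild-type males on casein.

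Per1 (93619_at), a repressor gene that the ARNTL pair drives, was low in the groups where Arntl was high. On casein it read 7.60, 8.18, 7.84 and 7.87 in HCM females and 7.93, 8.17, 8.15 and 8.14 in wild-type females, and 7.72, 8.21, 8.13 and 7.92 in HCM males and 7.46, 7.25, 7.31 and 7.73 in wild-type males. On soy it read 7.26, 7.33 and 7.26 in HCM females and 7.61, 7.62, 7.88 and 7.80 in wild-type females, and 7.48, 7.23 and 7.26 in HCM males and 7.91, 7.88, 7.73 and 7.96 in wild-type males. Its 3 lowest groups, HCM females on soy (7.28 ± 0.04), HCM males on soy (7.32 ± 0.14) and wild-type males on casein (7.44 ± 0.21), were the 3 groups with the highest Arntl. Per1 is one of the genes shown above with an E-box before a transcript start, though another of its promoter windows held none.

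Among males on casein, HCM hearts had less Arntl, more Per1 and less Cry1 than wild-type hearts. These were 3 of the 10 clock probe sets, 1 higher and 2 lower, where 31.6% of all probe sets were called (16.8% higher and 14.7% lower). Arntl did not overlap between the groups and was lower by -0.95 ± 0.18 on the log2 scale (± SE; limma adjusted p = 0.000186), and Per1 was higher by 0.56 ± 0.11 (limma adjusted p = 0.000455), with the lowest HCM array just under the highest wild-type array. Cry1 (94420_f_at), a repressor gene whose E-box is shown above, read 6.45, 6.46, 6.57 and 6.62 in HCM males and 6.69, 6.78, 7.03 and 7.03 in wild-type males on casein. The 2 groups did not overlap, and the difference was -0.36 ± 0.12 (limma adjusted p = 0.0219). Cry2 (97724_at), the related repressor, differed by 0.25 ± 0.11 and did not pass (limma adjusted p = 0.0968). Against wild-type set A alone the differences were -0.75 for Arntl, 0.64 for Per1 and -0.21 for Cry1, and against set B alone -1.15, 0.47 and -0.51; only Cry1 against set A did not pass (limma adjusted p = 0.277). The Cry1 call was also lost without wild-type replicate 3 (-0.31) or 4 (-0.31) or HCM replicate 1 (-0.34) or 2 (-0.34), with limma adjusted p-values of 0.0545 to 0.0748. These HCM arrays are also the ones with high Dap, and HCM cannot be told apart from that set on casein. Markers of other cell types differed too, as summed linear levels. Endothelial markers (6 measured) summed to 1891 to 2246 in HCM males and 2591 to 2866 in wild-type males on casein, and smooth muscle and pericyte markers (5) to 1383 to 1770 in HCM males and 1046 to 1339 in wild-type males, neither overlapping. Lymphocyte markers (4) did not overlap either, at 378 to 393 in HCM males and 394 to 457 in wild-type males, while atrial markers (3) overlapped, at 407 to 1241 in HCM males and 238 to 516 in wild-type males. Their part was not tested.

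Among females on casein, 0 of the 10 clock probe sets passed, where 33% of all probe sets were called. Arntl differed by 0.24 ± 0.18 (95% interval -0.13 to 0.60; limma adjusted p = 0.322) and Per1 by -0.23 ± 0.11 (95% interval -0.46 to 0.01; limma adjusted p = 0.131). At an unadjusted p under 0.05 there were 2, Npas2 (0.19 ± 0.07, limma adjusted p = 0.0515) and the dim Cry1 probe set 161225_r_at (-0.19 ± 0.08, limma adjusted p = 0.078). Replicate 2 of the HCM females stood apart from the other 3, with the lowest Arntl (4.78) and the highest Per1 (8.18) and Per2 (4.16) of its group. In females on casein 3 marker lists of other cell types did not overlap: endothelial markers summed to 1930 to 2391 in HCM and 2634 to 2849 in wild type, smooth muscle and pericyte markers to 1333 to 2310 in HCM and 881 to 1317 in wild type, and atrial markers to 634 to 2164 in HCM and 499 to 537 in wild type. Their part was not tested. Without replicate 2, 4 clock probe sets passed: Arntl was higher by 0.44 (limma adjusted p = 0.0492), Npas2 higher by 0.22 (0.0471), Per1 lower by -0.33 (0.03) and Per2 lower by -0.35 (0.0121).

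For Arntl the HCM difference on casein was 0.24 in females and -0.95 in males. The test of that difference between the sexes, over all probe sets, called 6 probe sets (0.0483%) and none of the clock loop: Arntl (1.19 ± 0.25) ranked 9 by p (limma adjusted p = 0.0871) and Per1 (-0.78 ± 0.16) ranked 7 (limma adjusted p = 0.0735). Without replicate 2 of the HCM females both passed, at 1.39 (limma adjusted p = 0.00441) and -0.89 (0.00696). Arntl alone passed without replicate 1 of the HCM males on soy (1.19, limma adjusted p = 0.0195), and Per1 alone passed without replicate 1 of the HCM males on casein (-0.87, 0.0338) or replicate 2 of the wild-type males on soy (-0.78, 0.0441). With array set fitted as a random block Per1 passed (-0.78, limma adjusted p = 0.0499) and Arntl did not (1.19, 0.063), and with array weights Arntl passed (1.26, 0.033) and Per1 did not (-0.81, 0.0681). With the replicate number as a block within casein wild type, 0 probe sets were called in all, the limma adjusted p was 0.0784 for Arntl and 0.0585 for Per1, and 823 probe sets had an unadjusted p under 0.05, against 686 without the block. On soy the same test called 0% of all probe sets, no clock probe set had an unadjusted p under 0.05, and the sex difference in the HCM effect was 0.17 ± 0.27 for Arntl (95% interval -0.39 to 0.73) and 0.10 ± 0.17 for Per1.

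On soy, HCM hearts of both sexes had more Arntl and less Per1 than wild-type hearts, the reverse of males on casein. The soy HCM arrays also stood apart from the soy wild-type arrays in BioD minus BioC, and HCM cannot be told apart from array set on soy. In females 4 of the 10 clock probe sets passed, 2 higher and 2 lower, where 4.07% of all probe sets were called (2.2% higher and 1.87% lower). Arntl was higher by 0.75 ± 0.19 (limma adjusted p = 0.0252) and Per1 lower by -0.44 ± 0.12 (limma adjusted p = 0.0369). Cry1 (94420_f_at) read 6.94, 6.88 and 6.77 in HCM females and 6.28, 6.43, 6.31 and 6.41 in wild-type females on soy, a difference of 0.50 ± 0.13 (limma adjusted p = 0.0255). Cry2 read 6.46, 6.44 and 6.51 in HCM females and 6.74, 6.92, 7.03 and 7.02 in wild-type females on soy, a difference of -0.46 ± 0.12 (limma adjusted p = 0.0295). For each of these genes, named because they passed, the HCM and wild-type females on soy did not overlap. How many of all probe sets also did not overlap was not counted, in this or any other comparison. The 2 cryptochrome genes moved opposite ways. With so few arrays these calls depended on single ones: leaving out HCM replicate 1 or 3, or wild-type replicate 3, kept 0 of the 4, and leaving out HCM replicate 2 or wild-type replicate 4 kept 1. Arntl then lay between 0.68 and 0.72 where it was lost (limma adjusted p = 0.0636 to 0.123). Atrial markers summed to 308 to 584 in HCM females and 686 to 1071 in wild-type females on soy. Macrophage markers (5) summed to 827 to 886 in HCM females and 898 to 1278 in wild-type females, liver markers (3) to 159 to 177 in HCM and 182 to 211 in wild type, and adipocyte markers (2) to 56 to 65 in HCM and 73 to 77 in wild type. None of these 4 lists overlapped between HCM and wild-type females on soy, and their part was not tested.

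In males on soy, where atrial markers summed to 329 to 380 in HCM and 415 to 991 in wild type, without overlap and with their part not tested, 3 of the 10 passed, 1 higher and 2 lower, where 12.5% of all probe sets were called (6.9% higher and 5.64% lower). Arntl was higher by 0.58 ± 0.19 (limma adjusted p = 0.0477), and 1 of the 3 HCM arrays, replicate 1 at 5.27, lay among the wild-type arrays. Without that array the difference was 0.87, and without replicate 2 or 3 it was 0.42 or 0.44 and did not pass (limma adjusted p = 0.236 and 0.243). Its call was lost in 22 of the 30 fits that leave out 1 array, most of them just past the threshold. Per1 was lower by -0.54 ± 0.12 (limma adjusted p = 0.00609) with no overlap. Per2 (93694_at), the repressor gene whose loss is known to disturb the mouse clock, read 3.84, 3.80 and 3.69 in HCM males and 4.30, 4.44, 3.94 and 3.94 in wild-type males on soy, a difference of -0.38 ± 0.12 (limma adjusted p = 0.0416). Per2 did not pass without wild-type replicate 1 or 2 or without any 1 of the HCM replicates (-0.41 to -0.28, limma adjusted p = 0.0557 to 0.176). Its mean over all arrays (3.88) was above that of only 6.7% of probe sets. With array set fitted as a random block, all 7 calls on soy were lost; the adjusted p-values were then 0.204 to 0.272 in females and 0.0832 to 0.229 in males.

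For the diet difference of the HCM effect (casein minus soy, averaged over both sexes), 6 of the 10 probe sets passed, 2 higher and 4 lower. Of all probe sets 45.2% were called (23.9% higher and 21.3% lower), so the count by itself says little about the clock genes. All of the Cry1 probe sets were among the 6. Arntl differed by -1.02 ± 0.19 (limma adjusted p = 7.03e-05) and Per1 by 0.66 ± 0.12 (limma adjusted p = 5.79e-05). Cry1 differed by -0.56 ± 0.13 (94420_f_at, limma adjusted p = 0.000599) and Cry2 by 0.49 ± 0.12 (limma adjusted p = 0.00129). The HCM effects behind these were, for Arntl, 0.24 in females and -0.95 in males on casein and 0.75 and 0.58 on soy, and for Cry2, 0.02 and 0.25 on casein and -0.46 and -0.26 on soy. The average over sexes therefore joins females on casein, with small differences, and males on casein, with large ones. The other 2 calls were the dim Cry1 probe sets, and they did not pass with array set fitted as a random block (limma adjusted p = 0.129 and 0.0896). Averaged over all 4 strata, the HCM effect called 4 of 10 (2 higher, 2 lower, where 32.8% of all probe sets were called, 17.2% higher and 15.6% lower), and Arntl was not among them (0.15, limma adjusted p = 0.212).

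**Figure D2:**
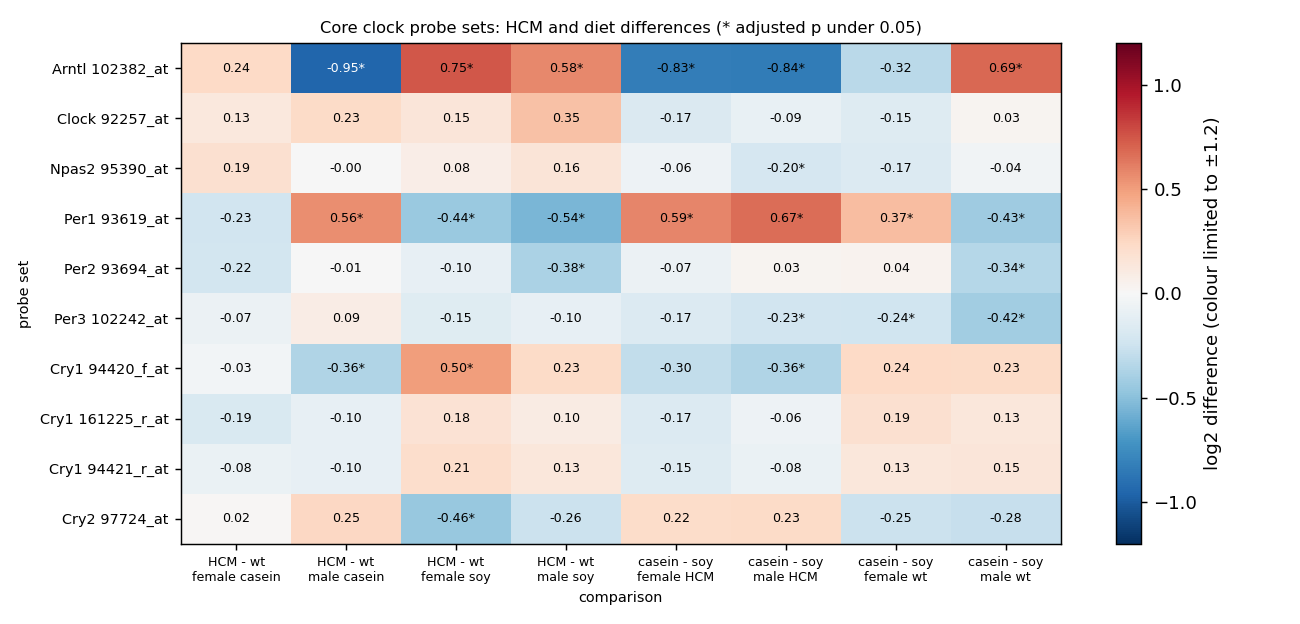
Log2 differences of the 10 clock probe sets (rows) for HCM minus wild type and for casein minus soy within each stratum (columns); colour runs from blue (lower) to red (higher), and a star marks a limma adjusted p under 0.05. Arntl was -0.95 for HCM in males on casein, against 0.75 and 0.58 on soy, and Per1 had the other sign in each of these columns.

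Between the diets, HCM hearts of both sexes had less Arntl and more Per1 on casein than on soy, while wild-type males had the opposite. In HCM males 5 of the 10 clock probe sets passed, 1 higher and 4 lower (48.8% of all probe sets, 23.8% higher and 24.9% lower), among them Arntl at -0.84 ± 0.19 (limma adjusted p = 0.000713) and Per1 at 0.67 ± 0.12 (limma adjusted p = 5.49e-05). In HCM females 2 passed, 1 higher and 1 lower (43.8%, with 21.5% higher and 22.3% lower): Arntl at -0.83 ± 0.19 (limma adjusted p = 0.00103) and Per1 at 0.59 ± 0.12 (limma adjusted p = 0.000353). In wild-type males 4 passed, 1 higher and 3 lower (37.8%, with 17.3% higher and 20.6% lower), with Arntl at 0.69 ± 0.18 (limma adjusted p = 0.00335) and Per1 at -0.43 ± 0.11 (limma adjusted p = 0.00393). In wild-type females 2 passed, 1 higher and 1 lower (24.8%, with 11.1% higher and 13.8% lower), with Per1 at 0.37 ± 0.11 (limma adjusted p = 0.0176) and Arntl at -0.32 ± 0.18, which did not pass (limma adjusted p = 0.197). For wild-type males, Arntl against soy was 0.49 with casein set A alone, which did not pass (limma adjusted p = 0.111), and 0.89 with set B alone. The diet comparisons and the HCM comparisons share groups, so their values for a gene are not independent. Arrays of the 2 diets also lay in different array sets, so diet cannot be told apart from array set in any stratum. Ventricular muscle markers summed higher on casein in each stratum, without overlap. In HCM males they summed to 59185 to 60886 on casein and 45939 to 48310 on soy. Other marker lists also did not overlap between diets in some strata, some higher and some lower on casein. In wild-type females, for example, endothelial markers summed to 2634 to 2849 on casein and 1965 to 2519 on soy, and macrophage markers to 739 to 882 and 898 to 1278. In HCM males smooth muscle and pericyte markers summed to 1383 to 1770 on casein and 1042 to 1156 on soy, and lymphocyte markers to 378 to 393 and 416 to 458. The part of these markers was not tested.

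Per3 (102242_at), the Per gene known to matter least for the rhythm and the one with D-boxes shown above, differed by diet. On casein it read 6.15, 6.23, 6.37 and 6.21 in HCM females, 6.35, 6.18, 6.27 and 6.46 in wild-type females, 6.29, 6.25, 6.17 and 6.17 in HCM males and 6.03, 6.07, 6.29 and 6.14 in wild-type males. On soy it read 6.44, 6.33 and 6.45 in HCM females, 6.46, 6.51, 6.67 and 6.59 in wild-type females, 6.53, 6.45 and 6.38 in HCM males and 6.49, 6.52, 6.64 and 6.56 in wild-type males. Males did not overlap between diets in either genotype, and wild-type females touched at 6.46. HCM females overlapped, with up to 6.37 on casein and from 6.33 on soy. The share of all probe sets that did not overlap between diets was not counted. Averaged over 4 strata it was lower on casein by -0.26 ± 0.04 (limma adjusted p = 5.08e-07), one of 4 clock probe sets called for diet, 1 higher and 3 lower, where 62.3% of all probe sets were called (29% higher and 33.3% lower). It was lower in wild-type males (-0.42 ± 0.07, limma adjusted p = 4.3e-05), HCM males (-0.23 ± 0.08, 0.0125) and wild-type females (-0.24 ± 0.07, 0.013). In HCM females -0.17 ± 0.08 did not pass (0.0793), but without casein replicate 3 of that group Per3 passed (-0.21, 0.0388). Its call was lost in HCM males without soy replicate 1 (limma adjusted p = 0.0701). In wild-type females it was lost without soy replicate 3 (0.058) or casein replicate 2 (0.0571). With array set fitted as a random block, Per3 passed neither in HCM males nor in wild-type females. Within groups its residual SD (0.09) was larger than that of only 8% of probe sets. For HCM it differed by -0.15 to 0.09 in the 4 strata and passed in none.

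Clock (92257_at) and Npas2 (95390_at), the genes of the partners of ARNTL, differed less than Arntl and Per1. Clock read 4.72 to 5.21 in HCM females and 4.73 to 5.12 in wild-type females on casein, 5.0 to 5.38 and 4.93 to 5.32 on soy, 4.99 to 5.13 in HCM males and 4.73 to 4.96 in wild-type males on casein, and 4.86 to 5.30 and 4.42 to 5.0 on soy. It was higher in HCM by 0.21 ± 0.07 averaged over 4 strata (limma adjusted p = 0.0144), by 0.13 to 0.35 within each of them, and passed in no single stratum. With wild-type set A alone on casein it did not pass (0.17, limma adjusted p = 0.0849). Npas2 ranged from 5.29 to 5.87 over all arrays, and was higher in HCM by 0.10 ± 0.04 (limma adjusted p = 0.0392) and lower on casein by -0.12 ± 0.04 (limma adjusted p = 0.00988) in the averages. Per1 (-0.16 ± 0.06, limma adjusted p = 0.0341) and Per2 (-0.17 ± 0.06, limma adjusted p = 0.0238) were the lower calls of the HCM average. With array set fitted as a random block, none of these 4 HCM calls passed (limma adjusted p = 0.189 to 0.284). Of the fits that leave out 1 array, Npas2 was lost in 15, Per1 in 11, Per2 in 1 and Clock in 0 of 30.

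Per2 lay between 3.59 and 4.16 in HCM females and between 3.83 and 4.08 in wild-type females on casein, and between 3.61 and 3.94 in HCM males and 3.71 and 3.90 in wild-type males on casein; on soy it lay between 3.69 and 3.97 in HCM females and 3.86 and 4.04 in wild-type females. It was lower on casein than on soy in wild-type males (-0.34 ± 0.11, limma adjusted p = 0.0196) and differed by -0.07 to 0.04 in the other 3 diet strata. The call in wild-type males was lost without soy replicate 1 (limma adjusted p = 0.0589) or 2 (0.0916) or casein replicate 1 (0.0571). Of the Cry1 probe sets, 94421_r_at and 161225_r_at averaged 3.22 and 3.24 over all arrays, above only 0.1% and 0.2% of probe sets. Their signs were the same as that of 94420_f_at in all 4 HCM strata and all 4 diet strata, with differences of -0.19 to 0.21. The annotation gives 94420_f_at and 94421_r_at the same source sequence, so their signs are not independent. All Cry1 calls within single strata were of 94420_f_at, which averaged 6.65. None of the other genes of the core loop has a probe set with the suffix f or r. In the list of other clock genes described below, Nfil3 (101805_f_at) and Csnk1d (97264_r_at) have one. Whether 94420_f_at also detects other transcripts was not tested. Cry2 was the only clock probe set called between casein wild-type sets A and B (0.33 ± 0.09, limma adjusted p = 0.0234; 13.5% of all probe sets), so its HCM and diet differences on casein depend on which wild-type arrays are used: HCM minus wild type in males was 0.14 with set A and 0.36 with set B. That call was lost without replicate 2 or 4 of the wild-type males or 1 or 4 of the wild-type females (0.25 to 0.31).

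Between the sexes, a clock probe set was called in 1 pair of groups. Averaged over 4 strata 0 of the 10 passed (0.233% of all probe sets), and 0 passed among HCM mice on casein (0.555%), HCM mice on soy (0.0322%) and wild-type mice on soy (0.0644%). At an unadjusted p under 0.05 there was 1 for the average (Cry1 94420_f_at, -0.14), 2 among wild-type mice on soy (Clock 0.26 ± 0.13 and Cry1 94420_f_at -0.29 ± 0.12) and none in the other 2. Among wild-type mice on casein, 12 probe sets were called in all (0.0966%), and Per1 was one: females were higher by 0.66 ± 0.11 (limma adjusted p = 0.00848, rank 5 of 12422), and all 4 female arrays lay above all 4 male arrays. Arntl differed by -0.83 ± 0.18, with every female array under every male array, ranked 15 and did not pass (limma adjusted p = 0.0568). It passed in 4 of the 30 fits that leave out 1 array: without replicate 2 of the wild-type males on casein (-0.94, limma adjusted p = 0.045) or of those on soy (0.0309), replicate 1 of the HCM males on soy (0.0134) or replicate 2 of the HCM females on casein (0.0118). Arntl also passed with array set fitted as a random block (-0.83, limma adjusted p = 0.0462), with array weights (-0.93, 0.0449), without the casein HCM arrays (-0.83, 0.044) and with only these 2 groups fitted (-0.83, 0.0488), where Per1 did not pass (0.66, 0.0754). The called probe sets also held Dbp (1.67), Nr1d2 (1.06) and a probe set of Nfil3 (-0.90), a repressor that acts at D-boxes. Another probe set of Nfil3, used below among the other clock genes, was not called (means 6.7 in these females and 6.96 in these males). The sex-linked genes Xist, Eif2s3x and Eif2s3y were called too, as were Lum (0.88), Mef2c (-0.58) and Myh11 (-0.53). Lum is on the list of fibroblast markers and Myh11 on that of smooth muscle and pericyte markers. The remaining calls had no gene symbol. Within set A the sex difference was 0.69 for Per1 and -0.66 for Arntl, and within set B 0.62 and -1.01, so both sets gave the same signs; with 2 arrays a side none of these passed.

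Across the 30 arrays Per1 followed Arntl inversely. Pearson's r was -0.84 and Spearman's rho -0.84, and r was -0.80 without the 2 arrays farthest from the Arntl median; it was -0.76 over the 16 casein arrays and -0.91 over the 14 soy arrays. For Cry2 r was -0.53 over all arrays, -0.32 on casein and -0.90 on soy, and for Cry1 (94420_f_at) it was 0.53 over all arrays, 0.54 on casein and 0.56 on soy. Without the 2 casein arrays farthest from the casein Arntl median, r on casein was -0.11 for Cry2 and 0.04 for Cry1. The casein values of these 2 genes therefore rest largely on those arrays. With the same step r was -0.45 and 0.49 over all arrays, and -0.86 and 0.51 on soy. Clock (0.39), Npas2 (0.39), Per2 (-0.39) and Per3 (0.00) followed Arntl less closely over all arrays. These values describe arrays that share groups, so they hold the group differences above. Taking each array's deviation from its group mean, r with Arntl was 0.58 for Clock, -0.44 for Per1, -0.47 for Per2 and -0.30 for Cry2. Without the 2 farthest arrays these were 0.38, -0.21, -0.27 and -0.26, so part of them rests on those arrays. They were replicate 2 of the HCM females on casein and replicate 1 of the HCM males on soy, each with the lowest Arntl and the highest Per1 of its group.

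**Figure D3:**
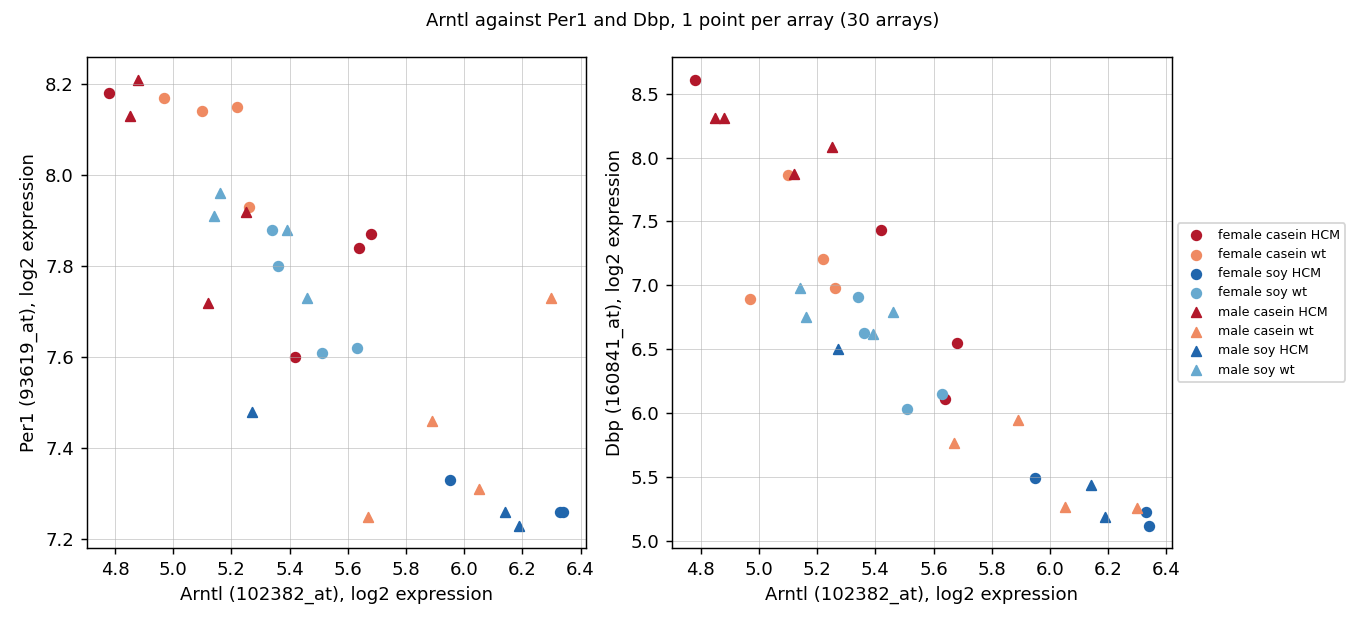
Arntl log2 expression (horizontal axes) against Per1 (left) and Dbp (right) log2 expression, 1 point per array of the 30, coloured by diet and genotype with circles for females and triangles for males. Both are lower on arrays with more Arntl (r = -0.84 and -0.92), and the group of HCM females on casein spans much of the Dbp range by itself, from 6.11 to 8.61.

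Of 10823 named probe sets outside the clock loop, the ones most like Arntl over the 30 arrays were Adam19 (r = 0.90), Sbno1 (0.75), Kdr (0.74), Pdpk1 (0.73) and Ice1 (0.73). The most opposite were Tspan4 (-0.92), Dbp (-0.92), Gstt2 (-0.82), Nr1d2 (-0.81) and Ier3 (-0.78). With group means removed, the highest were Adam19 (0.84), Fam220a (0.71), Tnfaip2 (0.71), Inpp5j (0.69) and Tomm20 (0.69), and the lowest Tef (-0.83), Usp2 (-0.82), Dbp (-0.80), Gja4 (-0.77) and Tspan4 (-0.77). Adam19, a membrane metalloprotease gene, led both orders, and Dbp and Tspan4 stood at the low end of both. These genes were picked from all probe sets for this likeness, so the values are a description.

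The rest of the clock pathway was described from a list of 30 genes, 18 of them measured. For HCM it held 7 calls in females on casein (1 higher, 6 lower, where 33% of all probe sets were called), 5 in males on casein (4 higher, 1 lower, where 31.6% were), 3 in females on soy (1 higher, 2 lower, where 4.07% were) and 2 in males on soy (2 higher, where 12.5% were). For diet it held 9 calls in HCM females (5 higher, 4 lower, where 43.8% of all probe sets were called), 12 in HCM males (8 higher, 4 lower, where 48.8% were), 9 in wild-type females (5 higher, 4 lower, where 24.8% were) and 6 in wild-type males (1 higher, 5 lower, where 37.8% were). The list's median differences lay between -0.103 and 0.095 in the 4 HCM strata, and the medians of all probe sets between -0.014 and -0.001.

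Dbp (160841_at), the output factor at D-boxes, read 7.87, 8.31, 8.31 and 8.08 in HCM males and 5.95, 5.77, 5.27 and 5.26 in wild-type males on casein. These groups were far apart, by 2.58 ± 0.34 (limma adjusted p = 1.81e-06). In HCM females on casein it read 7.43, 8.61, 6.11 and 6.55, against 6.98, 6.89, 7.21 and 7.86 in wild-type females, so the HCM arrays lay on both sides of the wild-type ones. On soy it read 5.12, 5.49 and 5.23 in HCM females and 6.03, 6.15, 6.91 and 6.63 in wild-type females, and 6.50, 5.19 and 5.44 in HCM males and 6.98, 6.62, 6.79 and 6.75 in wild-type males. Neither soy difference passed (-1.15 ± 0.37, limma adjusted p = 0.0699, in females and -1.07 ± 0.37, 0.0518, in males), although no HCM array reached a wild-type array of its sex. Nr1d2, the repressor of Arntl, was higher in HCM males on casein by 1.59 ± 0.21 (limma adjusted p = 1.87e-06), and differed by -0.08 ± 0.21 in females.

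Rora, the activator of Arntl, was higher in HCM on soy in females (0.38 ± 0.09, limma adjusted p = 0.0191) and males (0.48 ± 0.09, 0.00198), and lower in HCM females on casein (-0.51 ± 0.09, 4.58e-05). In those females Usp2, a ubiquitin protease gene under clock control, was lower by -0.96 ± 0.15 (limma adjusted p = 1.2e-05), Tef, the relative of Dbp, by -0.60 ± 0.10 (5.63e-05) and Wee1, the cell cycle kinase gene, by -0.43 ± 0.12 (0.00602). Arntl, Per1 and Dbp did not pass in those females. The 6 probe sets called for a sex difference in the HCM effect on casein were Usp2 (-1.19), Nr1d2 (-1.67), Dbp (-2.64), Ulk1 (-0.57), Frat2 (-0.44) and Tef (-0.76), each more negative in females, and 4 of them are on the clock list. With the replicate number as a block within casein wild type, none of the 6 passed (limma adjusted p = 0.0526 for each). Between the diets, Timeless was lower on casein in all 4 strata by -0.23 to -0.40, Wee1 by -0.37 to -0.71, and Csnk2a1, a kinase gene, was higher on casein by 0.35 to 0.64 in 3 of the 4 strata.

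**Figure D4:**
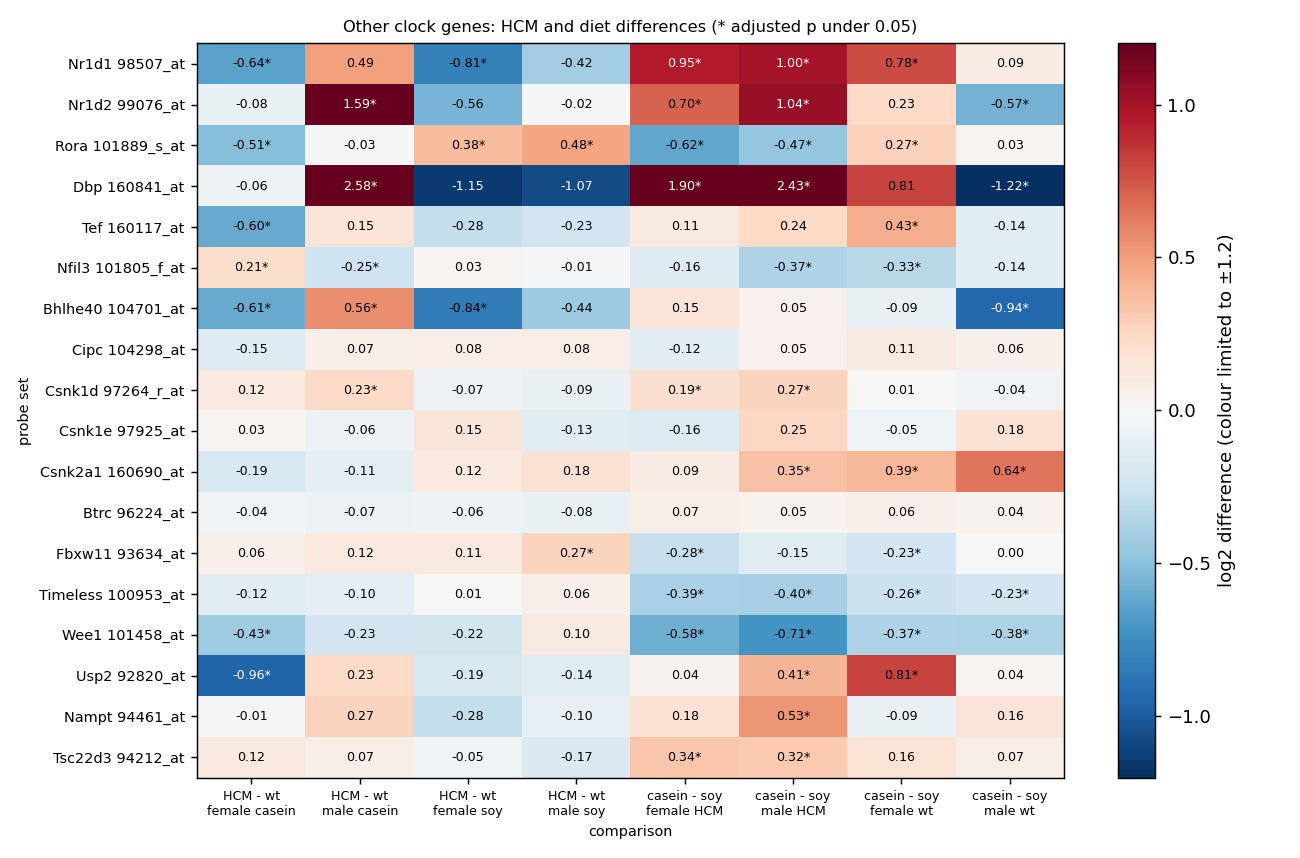
Log2 differences of the 18 other clock genes (rows, 1 probe set each) for HCM minus wild type and casein minus soy within each stratum (columns), with a star at a limma adjusted p under 0.05. Dbp and Nr1d2 were 2.58 and 1.59 in HCM males on casein, while Usp2, Tef and Wee1 were lower in HCM females on casein.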

How the data were processed

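Expression was measured on 30 Affymetrix MG_U74Av2 arrays of mouse left ventricle in 8 groups of 3 or 4, as the labels give sex, diet and genotype. Per the submitters' processing notes, the authors used RMA and Expression Console of Affymetrix, and each deposited value is a log2 level of 1 probe set. No version or setting is stated in those notes. The value table was used as deposited, with no scanner files and no detection calls. Of 12488 probe sets, 66 are array controls. Genes were named from the platform annotation, and positions and promoter windows are RefSeq's for GRCm38.p6.

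Group means of all arrays were estimated together in limma for the other 12422 probe sets (R 4.3.3, limma 3.58.1, statmod 1.5.0; 22 residual and 5.86 prior degrees of freedom). The comparisons were HCM, diet and sex averaged over 4 strata and within each, and 3 differences between HCM effects. Tests were two-sided, with Benjamini-Hochberg adjusted p under 0.05, and the model was tested on simulated data. Every member probe set is reported. Of the other clock genes at most 8 were to be named by smallest adjusted p over the HCM and diet strata, and of the genes most like Arntl the 5 highest and 5 lowest by Pearson r; Nr1d1, Bhlhe40, Nfil3, Csnk1d and the others are given by counts and in the plot of the other clock genes. Genes from the short sex-related call lists were named after their values were seen. Members, lists and array sets were chosen with earlier results of these data known. Precision is limited by the number of arrays. Same-numbered male and female arrays of casein wild type deviated together from their group means (r = 0.105 to 0.496, 4 of 4 pairs over 0.1). Such arrays also share array set A or B, so pairing by number cannot be told apart from array set there. In casein wild type the number was also fitted as a block, an alternative chosen after seeing the data. The labels do not give such a pairing. Other alternatives were removal of the dimmest 40% of probe sets, added quantile normalization, median centring, a replicate block, array weights, array set as a random block (consensus correlation 0.179), casein wild-type set A or B alone, the casein HCM arrays left out, only the 2 groups compared, and each array left out in turn.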

Additional observations from a re-analysis of the deposited data

Results flagged for a closer look

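In groups of 4 arrays, 60 sets of values were examined for 1 array far from the other 3, and 4 were found; chance gives about 1 in 20. Per1 was 7.93 in replicate 1 of the wild-type females on casein, under 8.14 to 8.17 in the other 3. Per2 was 4.16 in replicate 2 of the HCM females on casein, over 3.59 to 3.63 in the other 3; the effect of leaving this array out is given above. The dim Cry1 probe set 161225_r_at was 3.12 in replicate 1 of the wild-type males on soy, under 3.16 to 3.17. Cry2 was 6.85 in replicate 2 of the wild-type males on soy, under 6.95 to 6.96.

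For 6 clock probe sets the diet difference of the HCM effect (casein minus soy, averaged over both sexes) passed the limma test of the difference itself. It was -1.02 for Arntl, 0.66 for Per1, 0.49 for Cry2, and -0.56 (94420_f_at), -0.26 (94421_r_at) and -0.28 (161225_r_at) for the 3 Cry1 probe sets. Among all probe sets 45.2% passed that test. The casein HCM arrays are also the 8 with high Dap, so on casein HCM and array set cannot be told apart. Nor can they on soy, where BioD minus BioC did not overlap between HCM and wild-type arrays.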

How the results depend on the processing

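Over 7136 alternatives for single clock probe sets, 158 calls were lost and 93 gained, and no called value changed direction. Most of these alternatives leave out a single array. Where that array lies outside the groups compared, the difference itself cannot change, so an unchanged direction there is no check. Over all alternatives run, Arntl and Per1 kept their calls for HCM in males on casein and for diet in HCM mice of both sexes, as did Arntl, Per1, Cry1 (94420_f_at) and Cry2 for the diet difference of the HCM effect, except that the filter on dim probe sets removed Arntl. Other counts of clock calls moved by over 1.5 times, and the cause was not tested except where fewer probe sets or arrays entered. Over all probe sets, the HCM average called 4076, against 1194 with array set as a block, and HCM in males on soy called 1558, against 3515 with array weights, 167 with that block and 26 with only the 2 groups compared.

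Without the dimmest 40% of probe sets, which keeps 4 of the 10, the counts were 1 for the HCM average, 2 for the diet average, 1 for HCM in males on soy, 1 and 3 for diet in HCM females and males, and 3 for the diet difference of the HCM effect. Added quantile normalization gave 3 for diet in HCM males and 1 in wild-type females, and median centring gave 3 in HCM males. Array weights gave 7 for HCM in males on soy, 6 and 4 for diet in HCM and wild-type females, 2 for sex in wild type on casein, 1 for the sex difference in the HCM effect on casein and 2 for set A minus B. With array set fitted as a random block the counts were 0 for the HCM average, 2 for the diet average, 0 and 0 for HCM on soy in females and males, 2 for diet in HCM males, 0 in wild-type females, 2 for sex in wild type on casein and 1 for the sex difference in the HCM effect on casein. Without the casein HCM arrays sex in wild type on casein had 2. With set A alone the counts were 1 for the HCM average, 1 for HCM in females on casein, 2 for diet in wild-type males and 0 for sex in wild type on casein; with set B alone they were 1 for HCM in females on casein, 4 for diet in wild-type females and 0 for sex in wild type on casein. With only the 2 groups compared, HCM in males on soy had 0.

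Replicate numbers did not pair the arrays over the whole series: deviations from group means correlated at a median of -0.012 over 99 same-numbered pairs (-0.553 to 0.597), and 9 of 30 arrays matched best with their own number. The replicate block gave 2 for the HCM average, against 4 without it, and moved no other count of clock calls by over 1.5 times. Within casein wild type same-numbered male and female arrays deviated together, but they also share array set A or B. Pairing by number there cannot be told apart from array set. A block there, chosen after seeing the data, left the count of clock calls at 1 for sex in wild type on casein. For the sex difference in the HCM effect on casein it left the count at 0. Over all probe sets the first comparison then called 14, against 12 without this block, and the second 0, against 6.

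Leaving out 1 array gave 1 to 5 for the HCM average, 4 to 5 for the diet average, 0 to 4 and 1 to 4 for HCM on soy in females and males, 0 to 4 and 2 to 3 for HCM on casein in females and males, 3 to 5 for diet in HCM males and in wild-type males, 2 to 3 and 1 to 3 for diet in HCM and wild-type females, 1 to 2 for sex in wild type on casein, 6 to 6 for the diet difference of the HCM effect, 0 to 2 for the sex difference in the HCM effect on casein and 0 to 2 for set A minus B; the other 5 counts stayed at 0. The HCM average had 1 without replicate 1 of the HCM females on soy, and 2 without replicate 3 of those, replicate 3 of the wild-type females on soy, replicate 2 or 3 of the HCM males on soy, replicate 1 of the HCM males on casein or replicate 4 of the wild-type males on casein. HCM in males on soy had 1 without HCM replicate 2 or 3 or wild-type replicate 1, and diet in HCM males had 3 without soy replicate 2 or 3. Diet in wild-type females had 1 without soy replicate 1, 2 or 3 or casein replicate 2. HCM in females on casein had 1 call in 7 of the fits: Cry1 161225_r_at without wild-type replicate 3 or 4, and Npas2 without HCM replicate 1, wild-type replicate 2, replicate 1 or 2 of the wild-type males on casein or replicate 2 of those on soy. No depth is given with array values; dim probe sets such as Per2 and Cry1 94421_r_at and 161225_r_at limit what can be read from them.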
